A study of Mus musculus with 12 samples.

Results

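Fatty acid oxidation and peroxisome genes were followed across 4 groups of newborn mouse kidneys. The 39 genes were the rows whose symbol matched a fixed list of enzymes, carriers and peroxisome proteins, out of 24062 gene rows in each kidney's count file. All 39 symbols were found, and all 39 passed the filter on low counts in each of the 4 fits described here. RNA was sequenced from whole kidneys at postnatal day 3, with 3 kidneys per group and 12 in all. LIN28B OE kidneys (C57BL/6, labelled LIN28OE) came from mice with a doxycycline-inducible human LIN28B transgene. In the study, Wt1-Cre set where it could be expressed, as a driver active in the kidney mesenchyme that gives rise to nephrons. Doxycycline set when, and the study gave it as a short pulse before birth to prolong nephron formation. WT littermates of the LIN28B OE mice, also C57BL/6, are called LIN28B controls. The let-7 KO kidneys (mixed CD1 and C57BL/6) lacked let-7a-1, let-7d and let-7f-1 through a constitutive deletion, and their WT littermates on the same mixed background are called let-7 WT. Replicates 1 and 2 of each group carried litter number 1 in the labels, and replicate 3 carried litter number 2. Which alleles or doxycycline the WT littermates carried was not given in the sample labels.

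Fatty acids are first joined to coenzyme A by acyl-CoA synthetases and then enter mitochondria as carnitine esters, or peroxisomes through ABC transporters. In mitochondria, a dehydrogenase, a hydratase, a second dehydrogenase and a thiolase shorten the chain in repeated rounds, and the electrons pass through the electron transfer flavoprotein to the respiratory chain. Peroxisomes shorten very long, branched and bile acid precursor chains with oxidases in place of the first dehydrogenase. In the mature kidney, proximal tubule cells are rich in both organelles and draw most of their energy from fatty acids, and the nuclear receptor PPARα with its coactivator PGC-1α switches many of these genes on.

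The 3 microRNAs deleted in the let-7 KO are shown because they define that model and because LIN28B blocks maturation of the let-7 family. RefSeq mature sequences are written from 5′ to 3′ with the seed, bases 2 to 8, in capitals. They lie together on the minus strand of chromosome 13 (GRCm38.p6) at chr13:48538239-48538260, chr13:48536078-48536099 and chr13:48537889-48537910, in the order of the lines below.
mmu-let-7a-5p: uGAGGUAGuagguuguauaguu
mmu-let-7d-5p: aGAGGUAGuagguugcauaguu
mmu-let-7f-5p: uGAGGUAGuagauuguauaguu
All 3 share a seed. Its complement, CTACCTC, was searched for on the coding strand of the longest annotated 3′ UTR of each gene. It was found in 2 of 39 genes (5.13%), against 1657 of 14237 tested genes with a 3′ UTR (11.6%). The 3′ UTRs of the 39 genes had a median length of 750 bases, against 1301 bases over the tested genes. The matches in Ehhadh (base 168 of the 3′ UTR) and Hadha (base 767) are printed with flanking bases and with the match in capitals.
Ehhadh: ctgtatcttcCTACCTCataattctaa
Hadha: tcagtttgtcCTACCTCtgtccctcgg
These are letter matches only. Ehhadh measured 98.7, 53.6 and 84.7 CPM (read counts scaled to a common, TMM-normalized library size) in let-7 WT and 57.4, 119 and 78.6 CPM in let-7 KO kidneys. Hadha measured 200.0, 148 and 170.0 CPM in let-7 WT and 184, 209 and 207 CPM in let-7 KO. For both genes the WT and KO kidneys overlapped.

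Counts per kidney summed to between 39926235 and 61872736, so that 3 counts corresponded to 0.0485 to 0.0751 CPM. The mouse Lin28b row held 0, 18 and 33 counts in LIN28B controls and 232, 224 and 71 counts in LIN28B OE kidneys, although the transgene is human. The Mirlet7d row held 0, 19 and 35 counts in let-7 WT and 0, 0 and 0 counts in let-7 KO kidneys. These were libraries of long RNA and did not measure mature let-7. Among 7 fat markers, Adipoq, Ucp1, Plin1, Cidea and Cfd set LIN28B controls 1 and 2 apart, whereas Fabp4, the most abundant, did not. Fabp4 measured 411, 466 and 414 CPM in LIN28B controls and 235 to 617 CPM in the other 9 kidneys. Adipoq stood at 22.4 and 25.7 CPM in controls 1 and 2 and at 2.6 CPM in control 3, against 0 to 3.48 CPM in the other 9 kidneys. Values of the LIN28B comparison without these controls are given below for its main results. The relation of counts to transcript length also differed between kidneys and is described with the results it touches.

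The 39 genes differed widely in level. On a scale of CPM per kilobase of merged exons, averaged over 12 kidneys, Etfb, the β subunit of the electron transfer flavoprotein, was highest at 477. It was followed by Acaa2, the last-step thiolase of mitochondria, at 280 and Etfa, the other flavoprotein subunit, at 246. Ech1, an auxiliary isomerase, stood at 171 and Acadl, the long-chain acyl-CoA dehydrogenase, at 154. The 5 lowest were Acot2 at 4.68, Pex11a at 3.59, Acad10 at 3.49, Acad11 at 3.02 and Acox3 at 1.72 CPM per kilobase. Together the 39 genes held 5830, 6156 and 6058 CPM in LIN28B controls and 5344, 5023 and 4501 CPM in LIN28B OE kidneys. They held 7537, 6682 and 6335 CPM in let-7 WT and 6444, 7445 and 7505 CPM in let-7 KO kidneys. Each OE kidney was below each of its controls, whereas the KO and WT sums overlapped.

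LIN28B OE kidneys held less RNA of many fatty acid oxidation genes than their controls. Of 39 genes, 33 were lower, and the median log2 fold change was −0.32, against −0.016 over all 15793 genes tested, of which 51.5% were lower. Acsl1 and Ehhadh fell at an adjusted p below 0.05, which 0.766% of all tested genes did in that direction. At an unadjusted p below 0.01, the threshold the study used, 10 of 39 fell (25.6%), against 4.08% of all tested genes. In 18 of 39 all OE kidneys were below all controls, against 13.3% of all tested genes. None rose by edgeR at either threshold, against 0.462% of all tested genes at the adjusted and 3.25% at the unadjusted threshold. At an unadjusted p below 0.05 none rose either, against 8.53%. By DESeq2 none rose, against 4.09% at the adjusted threshold and 5.51% and 10.3% at an unadjusted p below 0.01 and 0.05. The log2 fold changes ran from −1.72 to 0.33. In whole kidneys, fewer cells of a type and less RNA per cell cannot be told apart.

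Leaving out single kidneys changed these counts, and the share of all tested genes called changed with them. Without control 1, 0 genes fell at the adjusted threshold and 4 at an unadjusted p below 0.01, against 2.12% of all tested genes. Without control 2, 0 fell at the adjusted threshold and 2 at the unadjusted threshold, against 2.09%. Without control 3 or without OE 2, 1 passed the adjusted threshold, against 0.247% and 0.172% of all tested genes. Without OE 1 or without OE 2, 5 fell at an unadjusted p below 0.01, against 3.33% and 2.98%. Without OE 3, 11 fell and 1, Etfb, rose at the adjusted threshold, against 6.15% of all tested genes downward and 6.61% upward. At an unadjusted p below 0.01, 14 then fell and Etfb rose, against 7.73% of all tested genes downward and 7.7% upward.

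With both controls of litter 1 left out, an alternative chosen after seeing the data, 3 OE kidneys stood against 1 control. The median was then −0.33 and 0 genes passed the adjusted threshold. At an unadjusted p below 0.01, 2 genes fell, Acsl1 at −1.31 and Ehhadh at −1.10 on the log2 scale, against 0.51% of all tested genes. Among the other genes described in full, Cpt1a changed from −0.71 to −0.42, Cpt2 from −0.47 to −0.28 and Hadhb from −0.39 to −0.25. Acad11, Etfdh, Hsd17b4, Acadvl, Abcd3, Acsl5 and Acadl were −0.82, −0.53, −0.46, −0.45, −0.47, −0.50 and −0.28. Of the other pathway genes, Cd36 changed from −1.44 to −0.78 and Slc22a5 from −0.93 to −0.57, and the median of all 85 then tested was −0.36, with 3 at an unadjusted p below 0.01. Of 13 proximal tubule markers 8 fell (median −1.20), and of 8 cap mesenchyme markers 6 rose (median 1.61), at that threshold.

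**Figure D1:**
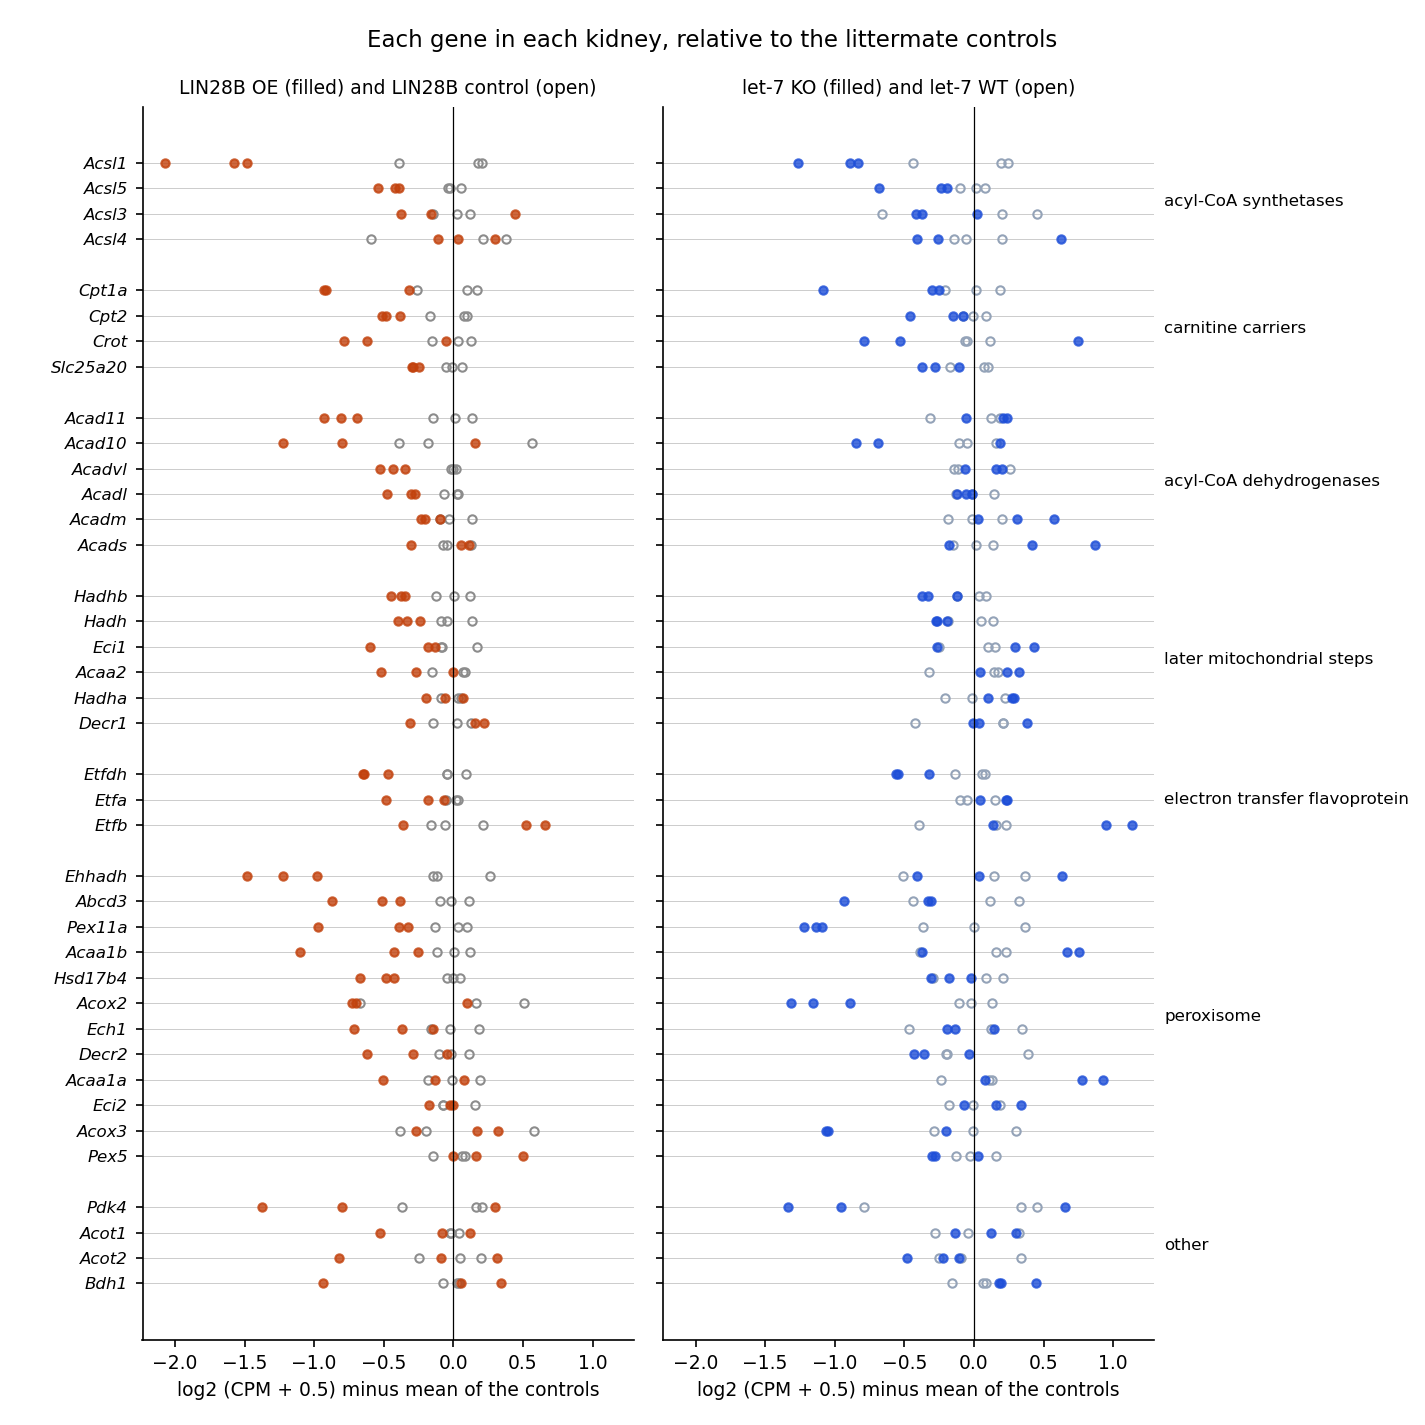
Each row is 1 of the 39 genes, grouped by role; filled points are the LIN28B OE (left) or let-7 KO (right) kidneys and open points their controls, on an axis of log2(CPM + 0.5) minus the control mean. The median over the rows is −0.25, −0.32 and −0.47 in the OE kidneys and −0.14, −0.04 and −0.20 in the KO kidneys.

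Among the 4 acyl-CoA synthetases, 2 fell at an unadjusted p below 0.01. Acsl1 (chr8:46471037-46536051, plus strand, mm10), a long-chain synthetase of mitochondria and endoplasmic reticulum, measured 156, 153 and 103 CPM in controls and 47.9, 31.7 and 45.0 CPM in LIN28B OE. The groups did not overlap, and in litter 2, with 1 kidney each, the values were 103 and 45.0. Its means were 137 ± 29.4 and 41.5 ± 8.62 CPM (SD, n = 3), a log2 fold change of −1.72 (SE 0.22, adjusted p = 0.008356 by edgeR's quasi-likelihood test). It kept an unadjusted p below 0.01 in 6 of 6 fits that left out 1 kidney, between −1.88 and −1.55. Acsl5 (chr19:55251938-55297720), a synthetase of mitochondria and endoplasmic reticulum, measured 104, 103 and 110.0 CPM in controls and 80.6, 78.9 and 72.4 CPM in OE, also without overlap (log2 fold change −0.44, SE 0.13, adjusted p = 0.1243). Acsl3 and Acsl4, which serve lipid droplets and arachidonate, overlapped between the groups; Acsl3 ran from 70.2 to 84.6 CPM in controls and from 59.9 to 106 CPM in OE.

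All 4 genes of the carnitine shuttle and its peroxisomal counterpart were lower in LIN28B OE, and 2 passed an unadjusted p below 0.01. Cpt1a (chr19:3322334-3385733), the rate-limiting transferase of the outer mitochondrial membrane, measured 181, 172 and 134 CPM in controls and 85.0, 84.1 and 129 CPM in OE. OE 3 was close to control 3, and the other OE kidneys lay far below (log2 fold change −0.71, SE 0.20, adjusted p = 0.1146). Cpt2 (chr4:107903981-107923610), the inner-membrane transferase, measured 142, 140.0 and 118 CPM in controls and 94.9, 102 and 93.0 CPM in OE. The groups did not overlap (log2 fold change −0.47, SE 0.14, adjusted p = 0.1214). Slc25a20, the carnitine-acylcarnitine carrier between them, measured 118 to 128 CPM and 99.5 to 103 CPM, again without overlap (−0.28, SE 0.13, adjusted p = 0.281). Crot, which makes medium-chain carnitine esters in peroxisomes, overlapped (−0.45, SE 0.20, adjusted p = 0.2814).

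All 6 genes of the acyl-CoA dehydrogenase family had lower values in LIN28B OE. Acad11 (chr9:104063377-104127725), a dehydrogenase with a part in the breakdown of hydroxy fatty acids, measured 28.3, 34.4 and 31.5 CPM in controls and 16.2, 17.7 and 19.2 CPM in OE (log2 fold change −0.82, SE 0.19, adjusted p = 0.06842). Acadvl (chr11:70010183-70015411), the very-long-chain dehydrogenase, measured 299, 302 and 306 CPM in controls and 224, 237 and 210.0 CPM in OE (−0.43, SE 0.12, adjusted p = 0.1). Of its exon bases, 42.9% overlap Dvl2 on the other strand, and the library kit did not mark strand, so that its counts are uncertain. Acadl (chr1:66830839-66863277) measured 349, 350.0 and 327 CPM in controls and 277, 283 and 246 CPM in OE (−0.35, SE 0.12, adjusted p = 0.1688), with no overlap but an unadjusted p above 0.01. Acadm, Acads and Acad10 overlapped between the groups. The smallest change was that of the short-chain dehydrogenase Acads, at −0.04 (SE 0.15).

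Of the 6 genes for the later mitochondrial steps, none passed an unadjusted p below 0.01 by edgeR, 2 passed below 0.05, and 1 passed below 0.01 by DESeq2. Hadhb (chr5:30155248-30184593), the thiolase subunit of the trifunctional protein, measured 256, 278 and 234 CPM in controls and 187, 197 and 201 CPM in OE, without overlap (log2 fold change −0.39, SE 0.12, adjusted p = 0.1451). Its partner subunit Hadha, which is encoded on the other strand next to it, measured 142, 155 and 157 CPM in controls and 159, 145 and 132 CPM in OE (−0.05, SE 0.13). Hadh, the short-chain hydroxyacyl-CoA dehydrogenase, was −0.32 (SE 0.12, adjusted p = 0.2101) without overlap, and Acaa2 was −0.25 (SE 0.15) with overlap.

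The 3 electron transfer genes differed in direction, and 1 of them passed an unadjusted p below 0.01. Etfdh (chr3:79603788-79629500), the oxidoreductase that hands the electrons to ubiquinone, measured 136, 149 and 136 CPM in controls and 89.9, 89.4 and 101 CPM in OE (log2 fold change −0.58, SE 0.13, adjusted p = 0.06677). Etfa measured 411 to 435 CPM in controls and 304 to 406 CPM in OE (−0.23, SE 0.14, adjusted p = 0.4169). Etfb measured 381, 408 and 494 CPM in controls and 670.0, 612 and 330.0 CPM in OE. OE 3 lay below all controls and the other OE kidneys above them (0.33, SE 0.24, adjusted p = 0.5132).

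Of 12 peroxisome genes, 10 were lower in LIN28B OE and 3 passed an unadjusted p below 0.01. Ehhadh (chr16:21761287-21787807), the peroxisomal bifunctional enzyme and a classical PPARα target, measured 80.4, 107 and 82.0 CPM in controls and 44.8, 37.9 and 31.5 CPM in OE. No OE kidney reached the lowest control, and the means were 89.7 ± 14.8 and 38.1 ± 6.62 CPM (SD, n = 3), a log2 fold change of −1.23 (SE 0.19, adjusted p = 0.01899). It kept an unadjusted p below 0.01 in 6 of 6 fits that left out 1 kidney, between −1.37 and −1.09. Hsd17b4, the other bifunctional enzyme, used for branched chains and bile acids, measured 167, 161 and 156 CPM in controls and 101, 120.0 and 115 CPM in OE (−0.52, SE 0.13, adjusted p = 0.08423). Abcd3 (chr3:121758774-121815302), an ABC transporter that brings acyl-CoA into peroxisomes, measured 152, 139 and 132 CPM in controls and 108, 76.7 and 98.5 CPM in OE (−0.58, SE 0.16, adjusted p = 0.1077). All 3 were free of overlap between the groups.

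The other peroxisome genes did not pass. Pex11a, which promotes peroxisome division, measured 12.3, 10.9 and 12.9 CPM in controls and 9.03, 9.48 and 5.86 CPM in OE (−0.56, SE 0.29, adjusted p = 0.3461). The thiolases Acaa1a and Acaa1b differed by −0.17 (SE 0.18) and −0.55 (SE 0.21, adjusted p = 0.2031); they are close copies, as are the thioesterases Acot1 and Acot2, and how shared reads were split was not given, so that each of the 4 is uncertain. Ech1 was −0.40 (SE 0.16, adjusted p = 0.2424). Pex5, the receptor that imports most peroxisome enzymes, measured 50.7 to 59.5 CPM in controls and 56.1 to 79.6 CPM in OE. The last 4 of the 39, Acot1, Acot2, the ketone body enzyme Bdh1 and the pyruvate dehydrogenase kinase Pdk4, all overlapped between the groups; Pdk4 was −0.48 (SE 0.40, adjusted p = 0.5861).

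Wherever the 3 OE and the 3 control kidneys of a gene did not overlap, the exact two-sided permutation test gave p = 0.1, the smallest that 3 against 3 can give.

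Most markers of the proximal tubule were also lower in LIN28B OE. Of 13 proximal tubule markers, 10 fell at an unadjusted p below 0.01 and 6 at an adjusted p below 0.05, with a median log2 fold change of −1.20. Their summed level was 4739 to 5431 CPM in LIN28B controls and 2094 to 2521 CPM in LIN28B OE, and none was at 0 in all kidneys. Slc34a1, the phosphate transporter, was −1.20 (SE 0.10, adjusted p = 0.000977). Of 4 thick limb and distal markers 3 fell, and their sums were 763 to 1137 CPM and 336 to 487 CPM. Of 8 cap mesenchyme markers, the nephron progenitor genes, 7 rose at an unadjusted p below 0.01 and 6 at an adjusted p below 0.05, with sums of 131 to 138 CPM in controls and 417 to 479 CPM in OE. Six2 rose by 3.35 on the log2 scale (SE 0.24, adjusted p = 0.0007973). The part of these markers in the change of the 39 genes was not tested.

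**Figure D2:**
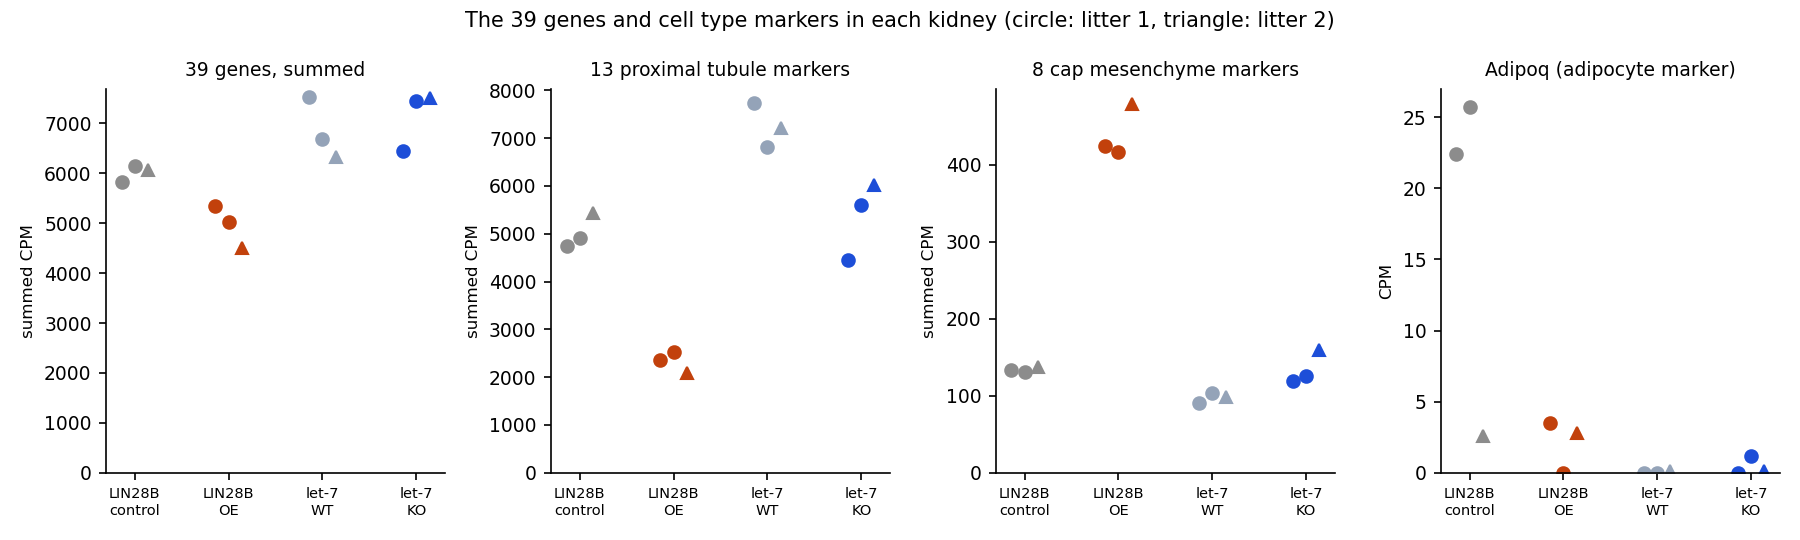
The panels give, for each of the 12 kidneys, the summed CPM of the 39 genes, of 13 proximal tubule markers and of 8 cap mesenchyme markers, and the CPM of Adipoq; circles are litter 1 and triangles litter 2. Proximal tubule sums are 2094 to 2521 CPM in LIN28B OE and 4739 to 5431 CPM in its controls, and 4443 to 6017 CPM in let-7 KO against 6819 to 7746 CPM in let-7 WT.

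Of 4 endothelial markers, 3 also fell in LIN28B OE at an unadjusted p below 0.01 (sums 291 to 331 CPM in controls and 206 to 218 CPM in OE). Of 6 stromal markers 2 fell and 1 rose, and of 4 immune markers 1 fell. Collecting duct, podocyte, adrenal, liver, muscle and red cell lists each had 0 calls at an unadjusted p below 0.01 by edgeR and by DESeq2. At an unadjusted p below 0.05 collecting duct and podocyte had 1 each and the others 0. Only 1 of 6 adrenal, 1 of 5 red cell, 2 of 5 muscle and 4 of 5 liver markers passed the filter on low counts. Their 0 calls therefore say little. Of the fat markers, 0 passed below 0.01 by either tool and 3 of 6 tested passed below 0.05, all lower. The globin rows Hba-a1, Hba-a2, Hbb-bs and Hbb-bt were listed at 0 in all 12 kidneys, as were Cyp11b2 and Myh8.

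In let-7 KO kidneys, the 39 genes differed from let-7 WT in both directions. Of 39 genes, 22 were lower and 17 higher, with a median log2 fold change of −0.10, against −0.023 over 15500 tested genes, of which 52.0% were lower. By edgeR, 0 genes passed an adjusted p below 0.05, which 0.0194% of all tested genes did downward and 0.0% upward. At an unadjusted p below 0.05, 5 were lower and 2 higher, against 5.56% and 5.28% of all tested genes. DESeq2 gave 2 adjusted calls, both lower, against 0.587% of all tested genes downward. At an unadjusted p below 0.01, Acox2, Acsl1 and Pex11a fell (7.69% of 39), against 1.63% of all tested genes, and 0 rose, against 1.1% of all; DESeq2 gave 4 lower and 2 higher there, against 2.47% and 2.97%. In 8 genes all KO kidneys were below all WT kidneys, against 9.16% of all tested genes. For Bdh1 all KO kidneys were above all WT kidneys, and the share of all tested genes in that direction was not counted. Without KO 1, 9 genes passed an unadjusted p below 0.01, of which 5 were lower and 4 higher (Acads, Acaa1a, Acaa1b and Etfb), against 4.47% of all tested genes downward and 3.65% upward.

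Acox2 (chr14:8225511-8259353), the peroxisomal oxidase for bile acid precursors and branched chains, measured 61.2, 54.9 and 51.6 CPM in let-7 WT and 24.7, 22.1 and 29.8 CPM in let-7 KO. Each KO kidney was well below each WT kidney, with means of 55.9 ± 4.86 and 25.5 ± 3.95 CPM (SD, n = 3) and a log2 fold change of −1.14 (SE 0.21, adjusted p = 0.239). In the LIN28B model it measured 13.9, 7.59 and 17.8 CPM in controls and 7.41, 13.3 and 7.27 CPM in OE, with overlap (−0.49, SE 0.38, adjusted p = 0.5552). Acsl1 measured 166, 107 and 172 CPM in let-7 WT and 81.4, 60.0 and 78.0 CPM in KO, with means of 148 ± 36.1 and 73.2 ± 11.5 CPM (SD, n = 3) and a log2 fold change of −1.02 (SE 0.22, adjusted p = 0.3247). Pex11a measured 17.5, 22.7 and 13.5 CPM in WT and 7.72, 7.21 and 7.95 CPM in KO (−1.24, SE 0.32, adjusted p = 0.3623). The KO kidneys of both genes were below all WT kidneys. Acox2 and Acsl1 kept an unadjusted p below 0.01 in 6 of 6 fits that left out 1 kidney, and Pex11a in 4 of 6.

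Etfdh measured 196, 172 and 199 CPM in let-7 WT and 151, 128 and 129 CPM in let-7 KO, without overlap (log2 fold change −0.48, SE 0.17, adjusted p = 0.3765). Etfb (chr7:43444083-43457800) had the highest fold change of the 39 genes, with 509, 535 and 347 CPM in WT and 502, 879 and 1001 CPM in KO. KO 1 lay among the WT kidneys and the other KO kidneys far above (0.77, SE 0.26, adjusted p = 0.3765). Of its exon bases, 58.2% also lie in Gm45233 and Mir7051 on the same strand, so that its counts are uncertain. Cpt1a, Cpt2, Acsl5 and Hadh were also without overlap and lower in KO, at −0.51 (SE 0.23), −0.23 (SE 0.17), −0.36 (SE 0.19) and −0.26 (SE 0.16). Crot ranged from 81.3 to 237 CPM in KO and from 135 to 153 CPM in WT.

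By role, the 4 carnitine genes were all lower in let-7 KO (median −0.25), whereas 4 of 6 dehydrogenases, 4 of 6 genes of the later mitochondrial steps and both flavoprotein subunits had higher values. By edgeR, 0 of these 19 genes passed an unadjusted p below 0.01 in either direction; Etfdh (lower) and Etfb (higher) passed below 0.05 by edgeR and below 0.01 by DESeq2. Of 13 proximal tubule markers, 5 fell at an unadjusted p below 0.01 in let-7 KO (median −0.44), with sums of 6819 to 7746 CPM in WT and 4443 to 6017 CPM in KO. Of 8 cap mesenchyme markers 1 rose, with sums of 90.3 to 103 CPM and 119 to 159 CPM. Their part was not tested.

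**Figure D3:**
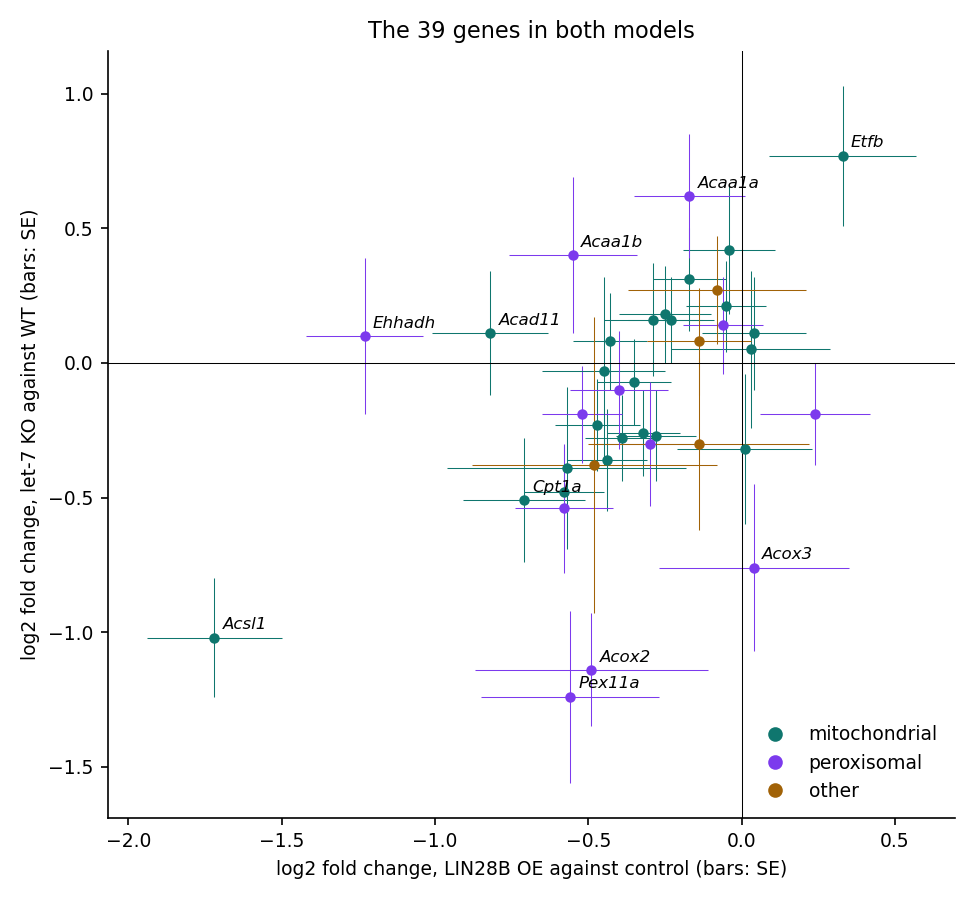
Each point is 1 of the 39 genes, with its log2 fold change in LIN28B OE on the horizontal axis, in let-7 KO on the vertical axis, and bars of 1 SE. Color follows the role lists (mitochondrial, peroxisomal or other), with all carnitine and dehydrogenase genes, Crot and Acad11 among them, colored as mitochondrial. Acsl1 lies at −1.72 and −1.02, Ehhadh at −1.23 and 0.10, and Acox2 at −0.49 and −1.14.

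Fold change was related to transcript length in let-7 KO, and more weakly in LIN28B OE. Per-kidney slopes of log2 counts on log2 exon length, relative to the mean of all kidneys over 13429 genes, ran from −0.1537 to 0.1255. They were 0.0019, −0.1349 and −0.1537 in let-7 KO and 0.0159, −0.0904 and 0.1227 in let-7 WT, with overlap. In LIN28B controls they were 0.1127, 0.0758 and −0.0005, and in LIN28B OE −0.0373, −0.0379 and 0.1255, also with overlap. Across the 39 genes, log2 fold change in let-7 KO and exon length had a Spearman rho of −0.42, against −0.23 over 14754 genes. In LIN28B OE rho was −0.18, against −0.1 over 15014 genes. These are descriptions across genes of the same libraries, which are not independent replicates. In let-7 KO the 10 genes shorter than 2500 exon bases had a median of 0.16 and the 29 longer ones −0.26. With the slope as a covariate, chosen after seeing the data, these medians were −0.11 and −0.17. Etfb, with 1164 exon bases, then changed from 0.77 to 0.26, and Acsl1, with 10483, from −1.02 to −0.73. Acox2 was −1.20 and Pex11a −1.43. The slope was estimated from these same libraries, so that the covariate takes out a length trend by construction. Over all genes rho went from −0.23 to −0.01. No conclusion on length is therefore drawn from the narrower gap, and the cause was not tested. In the LIN28B model the same covariate gave 15 genes at an adjusted p below 0.05, all lower, and a median of −0.36; it also raised the share of all tested genes called downward from 0.766% to 4.12%.

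**Figure D4:**
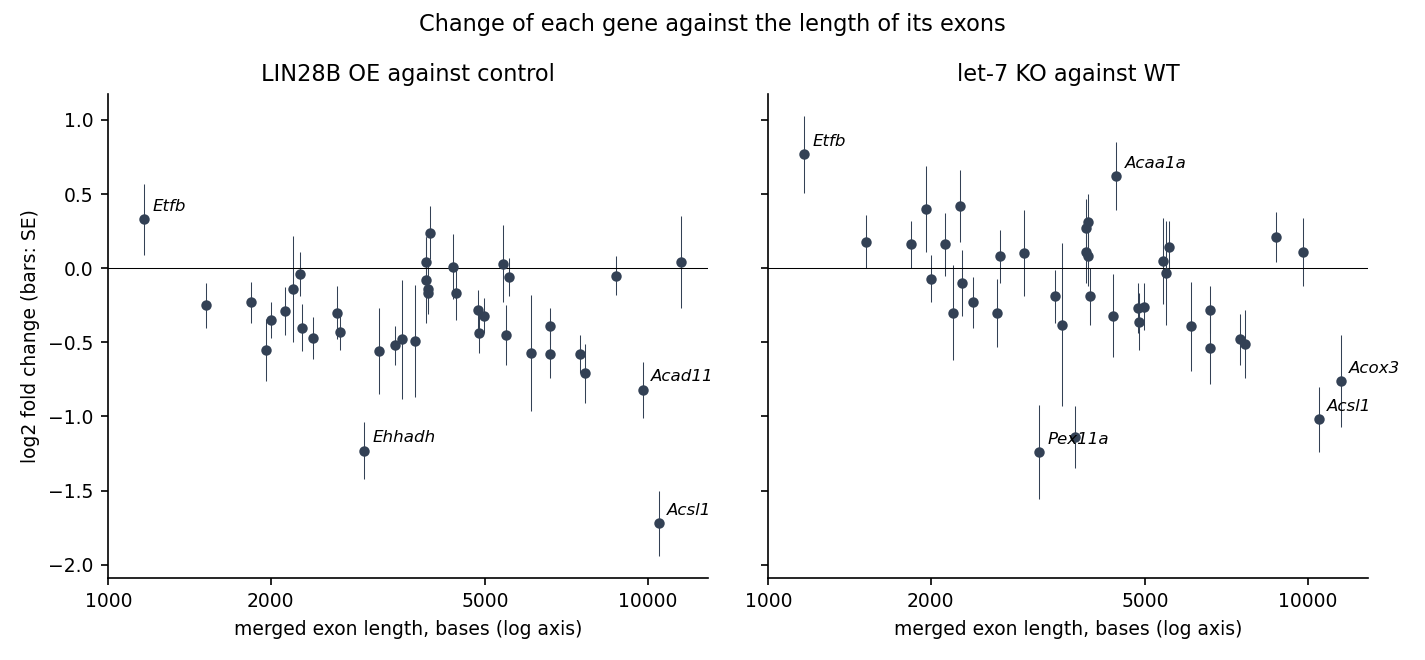
Log2 fold change is plotted against exon length (log axis, bases) for the 39 genes, with LIN28B OE on the left, let-7 KO on the right, bars of 1 SE and no length covariate. In let-7 KO the 10 genes under 2500 bases have a median of 0.16 and the 29 longer ones −0.26.

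The difference between the models was tested as an interaction in 1 fit of the 12 kidneys. By edgeR, 0 of 39 genes passed an adjusted p below 0.05, against 0.00602% of 16598 tested genes; DESeq2 also gave 0, and 7 passed an unadjusted p below 0.05. At an unadjusted p below 0.01, Ehhadh and Acad11 passed, against 1.55% of all tested genes. The change of Ehhadh was 1.36 lower on the log2 scale in LIN28B OE than in let-7 KO (SE 0.38, adjusted p = 0.5257), and that of Acad11 0.95 lower (SE 0.28, adjusted p = 0.5371). Acad11 measured 35.8, 26.3 and 37.4 CPM in let-7 WT and 38.7, 37.9 and 31.5 CPM in KO. The difference was in the same direction for 33 of 39 genes, with a median of −0.23 against −0.022 over all tested genes. It was −0.72 for Acsl1 (SE 0.32, adjusted p = 0.7753). Without both LIN28B controls of litter 1, 0 passed an unadjusted p below 0.01. The same was found without control 2 alone and without let-7 KO 2 alone, whereas 1 passed without OE 1 or without let-7 WT 2 and 6 without let-7 KO 1. The share of all tested genes called was not counted for these fits or, in the fit of 12 kidneys, at an unadjusted p below 0.05.

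The control groups of the models also differed from each other. These comparisons share kidneys with those above, so that the values are given side by side only. Of 39 genes, 33 were higher in let-7 WT than in LIN28B controls, with a median log2 difference of 0.17 against −0.014 over 15850 tested genes. Acox2 passed an adjusted p below 0.05, which 0.751% of all tested genes did upward, with 55.9 ± 4.86 CPM in let-7 WT and 13.1 ± 5.14 CPM in LIN28B controls (SD, n = 3), a log2 difference of 2.09 (SE 0.29, adjusted p = 0.01019). Acox2, Crot (0.51), Hadhb (0.48) and Etfdh (0.43) passed an unadjusted p below 0.01 upward, against 2.82% of all tested genes. The adjusted call was lost without LIN28B control 1 and without let-7 WT 1, where 1 gene passed an unadjusted p below 0.01. Of 13 proximal tubule markers, 9 were higher in let-7 WT at an unadjusted p below 0.01. The control groups also differed in library number. Strain, colony and library number cannot be told apart here.

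**Figure D5:**
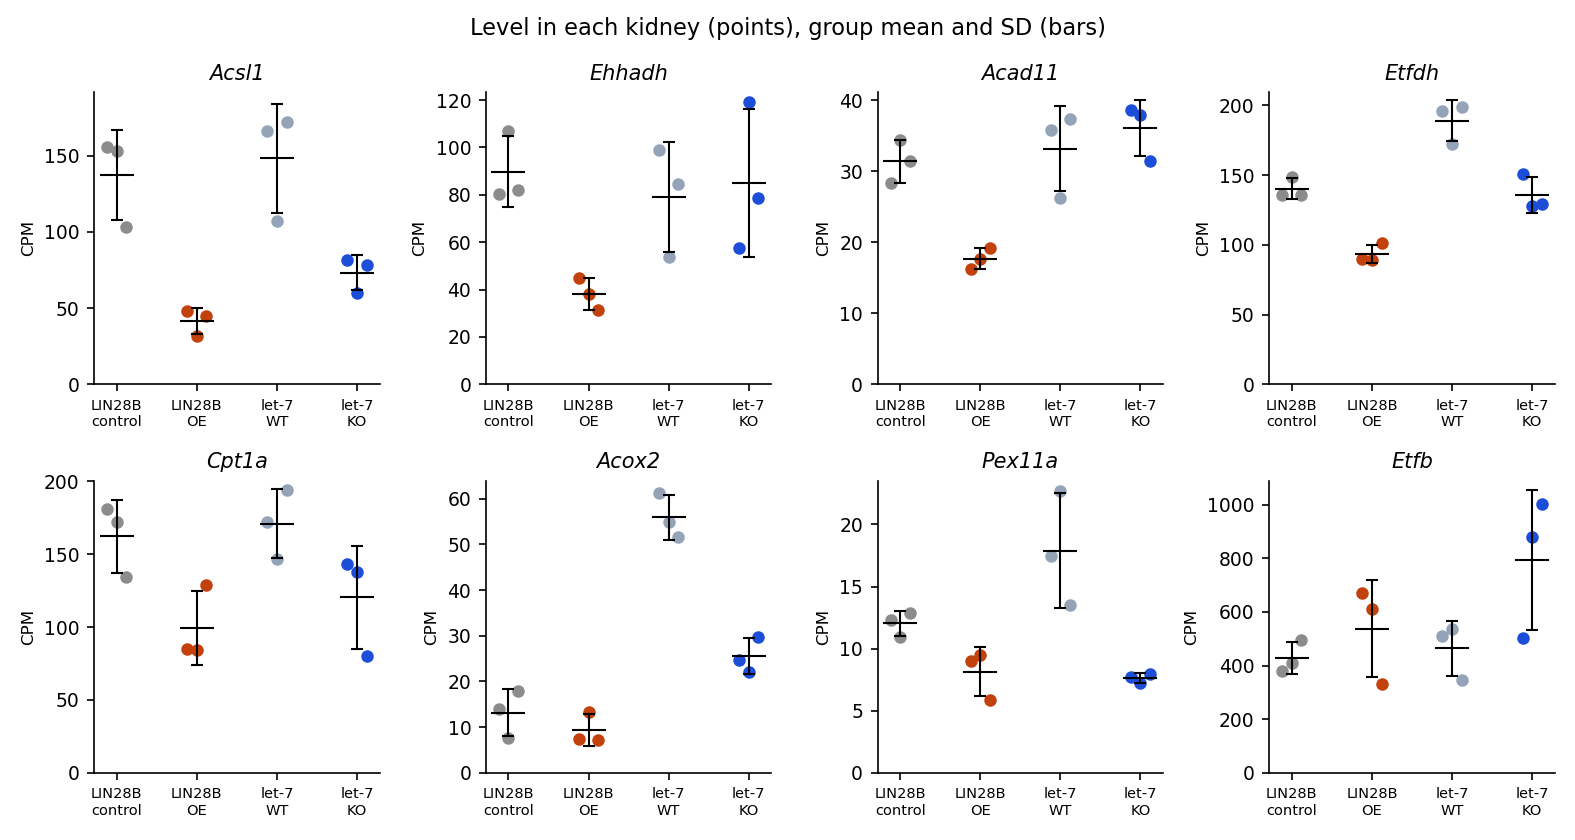
The CPM of 8 genes is plotted on axes that start at 0, with a point for each kidney of the 4 groups and bars for the group mean and SD (n = 3). Acox2 lies at 51.6 to 61.2 CPM in let-7 WT and at 7.27 to 29.8 CPM in the other groups, and Acsl1 at 31.7 to 47.9 CPM in LIN28B OE.

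Promoters of the 39 genes were searched for the direct-repeat element that PPARα (with its partner RXR) and HNF4α bind. The element was AGGTCA, 1 base, AGGTCA, on both strands, with at most 2 mismatches in the 12 bases, in RefSeq promoters (GRCm38.p6) from 250 bases before to 50 after the start. It matched in 3 of 36 genes with a promoter (8.33%), against 1190 of 27025 genes (4.4%). The windows are printed in the direction of transcription, with the matched bases in capitals.
Acox2: gctgtcccAGGACAGAGGTGAgtcaagag
Slc25a20: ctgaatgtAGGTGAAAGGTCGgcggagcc
Etfa: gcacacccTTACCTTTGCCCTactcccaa
They lie at chr14:8258810-8258838 (minus strand), chr9:108662134-108662162 (plus strand) and chr9:55512300-55512328 (minus strand). The match centers are 15 and 12 bases after and 71 bases before the start, and the match in Etfa is on the strand opposite to the gene. A match is a description of these letters and says nothing of binding. Slc25a20 and Etfa, without overlap in LIN28B OE, were −0.27 (SE 0.17) and 0.16 (SE 0.16) in let-7 KO.

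Other genes of the same pathways, outside the 39, were lower in LIN28B OE as well. Of 83 tested, 17 fell at an unadjusted p below 0.01 (20.5%) and 5 at an adjusted p below 0.05, and the median was −0.36. None rose by edgeR at an unadjusted p below 0.01 or below 0.05, against 3.25% and 8.53% of all tested genes. By DESeq2 none rose at an adjusted p below 0.05 or an unadjusted p below 0.01, against 4.09% and 5.51%. Of 11 uptake genes 3 fell, among them the fatty acid transporters Cd36 (−1.44, SE 0.35, adjusted p = 0.07963) and Slc27a2 (−1.14, SE 0.14, adjusted p = 0.007105) and the carnitine transporter Slc22a5 (−0.93). Of 18 further mitochondrial genes 4 fell, from Acsm2 (−2.03, SE 0.20, adjusted p = 0.001946) and Acss1 (−1.10) to Mut (−0.66). Of 33 further peroxisomal enzymes 9 fell, from Pipox (−1.12, SE 0.23, adjusted p = 0.05479) and Acot4 (−0.91) to Scp2 (−0.53).

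Catalase (Cat), which breaks down the peroxide that oxidases make, measured 219, 222 and 177 CPM in controls and 93.2, 109 and 136 CPM in OE (−0.86, SE 0.17, adjusted p = 0.05018). Each OE kidney was below each control. The 15 further peroxins, which build the organelle, had a median of −0.12. By edgeR 0 of them passed an unadjusted p below 0.01 and 1 passed below 0.05, lower, and DESeq2 gave 1 lower below 0.01. The 12 lipid synthesis genes had a median of 0.05, with 0 below 0.01 by edgeR, 1 lower below 0.05, and 1 lower below 0.01 by DESeq2.

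In let-7 KO, 3 of 82 tested pathway genes outside the 39 fell at an unadjusted p below 0.01 (3.66%) and 1 rose, with a median of −0.14. These were Slc22a5 (−0.68), Acsm2 (−1.17, SE 0.25, adjusted p = 0.2975), Cat (−0.61, SE 0.18, adjusted p = 0.3623) and, higher, the thioesterase Acot13 (0.88). By edgeR, 0 of 15 peroxins passed an unadjusted p below 0.01, as by DESeq2, and 1 passed below 0.05, higher. Of the 12 lipid synthesis genes Fads1 fell (−1.06).

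Among 18 regulators, the steroid-responsive factor Klf15 alone fell in LIN28B OE at an unadjusted p below 0.01 (−0.89, SE 0.19, adjusted p = 0.05599). Ppara measured 11.7, 11.3 and 13.2 CPM in controls and 5.34, 9.78 and 3.23 CPM in OE, without overlap but with a wide spread (−0.98, SE 0.40, adjusted p = 0.2332). Ppargc1a, which encodes PGC-1α, measured 74.9, 50.1 and 55.1 CPM in controls and 43.7, 41.4 and 39.4 CPM in OE (−0.53, SE 0.19, adjusted p = 0.177). Of 17 regulators tested in let-7 KO, Ppargc1a was the 1 that fell at an unadjusted p below 0.01, with 83.0, 76.6 and 73.5 CPM in WT and 51.4, 50.2 and 53.9 CPM in KO (−0.59, SE 0.17, adjusted p = 0.3623). In neither model did the groups of Ppargc1a overlap. Hnf4a, a tubule and liver factor, was −0.29 (SE 0.15) in LIN28B OE and −0.35 (SE 0.18) in let-7 KO, and it was 0.93 higher on the log2 scale in let-7 WT than in LIN28B controls (SE 0.14, adjusted p = 0.01634). Esrra, a partner of PGC-1α, was −0.13 (SE 0.21) and −0.27 (SE 0.21).

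Of 12 tested PPARα target genes outside the 39, 4 fell in LIN28B OE at an unadjusted p below 0.01, with a median of −0.53. The lowest were the ω-hydroxylases Cyp4a14 (−2.78, SE 0.24, adjusted p = 0.000977) and Cyp4a10 (−1.44, SE 0.18, adjusted p = 0.008039), and the highest of the 4 was Txnip (−0.64). In let-7 KO, Cyp4a10 (−1.07, SE 0.24, adjusted p = 0.3447) and the lipid droplet gene Plin2 (−0.71) passed, 2 of 11 tested.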

How the data were processed

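RNA of 12 whole kidneys at postnatal day 3 was sequenced, 3 per group. RNA from each kidney was extracted with TRIzol and DNase, made into libraries with a SMARTer Ultra Low RNA kit (V3), which does not mark strand, and read on a HiSeq 2500. The submitters' processing notes name cutadapt, TopHat2 2.0.9, Bowtie2, SAMtools 0.1.19, HTSeq and mm10, so multi-mapped reads of close copies and overlapping genes are uncertain. The values deposited by the authors were unnormalized read counts, in a separate file for each kidney with gene symbols as row names.

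Groups came from the genotype and strain labels. Each comparison was fitted alone on all genes in edgeR 4.0.16 (R 4.3.3): filterByExpr (minimum count 10, minimum total count 15), TMM, quasi-likelihood test and Benjamini-Hochberg adjustment over all genes tested. An unadjusted p below 0.01 was used as a second threshold, after the study. Each standard error is the size of the log2 fold change over √F. Printed CPM use TMM library sizes, with SD over 3 kidneys. The difference between models was an interaction in 1 fit of 12 kidneys. Exact permutation tests of 3 against 3 cannot go below p = 0.1. Counts of 2 kidneys of a group always differed by more than sampling noise (lowest chi-square per gene 31.6), and intervals and limits set by counts cover counting error only. The scripts were tested on simulated data. Alternatives were DESeq2 1.42.0, other normalizations and filters, litter as a block, 1 fit of all kidneys and each kidney left out.

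Genes given in full were those with an adjusted p below 0.05, filled to 12 by smallest p in the LIN28B model, and the 5 with the smallest p in the let-7 model; from the other lists, the 2 lowest and the 1 highest that passed an unadjusted p below 0.01, and preset genes (Ppara, Ppargc1a, Hnf4a, Esrra, Cat; others are not reported here). Other genes of the 39 were named to complete each role, after their values were seen. The genes, lists and tests were chosen with earlier results of these data known, and the microRNA site search was added later. Labels give each kidney a litter number. Kidneys of the same litter number and model had a mean correlation of deviations from their group means of −0.112 (LIN28B) and −0.027 (let-7), against 0.138 and 0.033 for different numbers. The labels do not say whether all kidneys came from separate mice, and p-values measure the spread between these kidneys.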

Additional observations from a re-analysis of the deposited data

How the results depend on the processing

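All 250 values of the fully reported genes under the alternatives kept their direction. These genes were picked for small p-values in these data, and the alternatives refit the same kidneys, so this is no independent check. Of the 250, 28 came to pass an adjusted p of 0.05 that their reported value did not, and 8 no longer passed it. In LIN28B OE, the count at an adjusted p below 0.05 changed from 2 to 10 with DESeq2 and 15 with the transcript-length covariate. The share of all tested genes called lower there changed from 0.766% to 3.8% and 4.12%. The count at an unadjusted p below 0.01 changed from 10 to 18 with the covariate, and that share from 4.08% to 5.92%. Without both controls of litter 1, Acsl1 was −1.31 and Ehhadh −1.1 on the log2 scale. In let-7 KO the adjusted count changed from 0 to 2 and the unadjusted count from 3 to 6 with DESeq2. Of all tested genes, DESeq2 called 0.587% lower at the adjusted threshold. At the unadjusted threshold it called 2.47% lower and 2.97% higher. For the difference between models, the unadjusted count changed from 2 to 5 with the length covariate and 0 without both controls. Between the control groups, the adjusted count changed from 1 to 4 with DESeq2, 2 with the length covariate and 0 without both controls, and the unadjusted count from 4 to 1 without both controls. For the difference and for the control groups, the share of all tested genes called under these alternatives was not counted. The cause was not tested, and omitting both controls leaves 1 control. Both the length covariate and the omission of both controls were chosen after seeing the data. Other normalizations and filters and 1 fit of all kidneys left each count within 1.5 times its value.

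Leaving out 1 kidney gave, in LIN28B OE, 0 to 12 adjusted and 2 to 15 unadjusted calls (1 of the 12 and of the 15 higher) and a median of −0.361 to −0.229. In let-7 KO it gave 0 adjusted and 2 to 9 unadjusted calls (4 of the 9 higher) and a median of −0.176 to 0.0. For the difference it gave 0 adjusted and 0 to 6 unadjusted calls and a median of −0.279 to −0.199. Between the controls it gave 0 to 1 and 1 to 5 calls and a median of 0.093 to 0.228. With litter as a replicate block, LIN28B OE had 2 adjusted and 9 unadjusted calls and a median of −0.321, let-7 KO 0, 3 and −0.070, and the difference 0, 2 and −0.251, so that the block moved no count by over 1.5 times. With 3 kidneys per group and 2 adjusted calls, a gene that did not pass may still differ; whole-kidney RNA, the fat-marked controls and length slopes limit what these libraries show.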
